A study of Mus musculus with 12 samples.

Results

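The hearts compared here came from mice kept on a high-fat diet and operated on in either of 2 ways: transverse aortic constriction (TAC), a narrowing of the aortic arch that raises the pressure against which the left ventricle pumps, or a sham operation without the narrowing. The comparison was chosen by diet and surgery and rests on 2 sham libraries (replicates 2 and 3) and 3 TAC libraries (replicates 1 to 3), which are 5 of the 12 samples of the study and 5 of the 11 that have values; sham replicate 1 was not analysed here. All mice were C57Bl/6J and 12 weeks old, and no genetic change is named. Both groups ate food with 60 kcal% fat from 4 days before the operation until the heart was taken, 1 week after it, so the diet is common to sham and TAC and its own effect is not part of the comparison. The labels name the tissue only as heart, without a chamber. A set of 6 further libraries, 3 sham and 3 TAC, came from mice of the same strain and age on a fat-free diet (0 kcal% fat) and is used only where the high-fat comparison is set beside it. The diets were normalized separately, as separate data sets, so a difference between diets cannot be told apart from one between data sets.

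The heart covers most of its energy need by oxidizing fatty acids in mitochondria, and the genes for this are driven by the nuclear receptors PPAR-alpha and ERR with the coactivator PGC-1. Fatty acids are themselves ligands of PPAR-alpha, so a fat-rich diet bears on the same genes. A heart under pressure load is known to enlarge its muscle cells, to return to a fetal gene program, to lay down matrix through activated fibroblasts, and to take up or multiply macrophages.

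Each value is a normalized read count: reads counted per gene, divided by the authors by a factor for the depth of the library and rounded. Fold changes are differences of log2(value + 1) with their standard errors (SE), fitted with limma over the 14274 genes that had at least 10 normalized counts in at least 2 libraries. A gene is said to have risen or fallen where the p-value, adjusted over all these genes by the Benjamini-Hochberg method, was under 0.1, the level used in the study. Whether a library stands for 1 mouse or more is not stated in the labels, so the p-values measure only the spread between libraries. Values are listed in the order sham replicates 2 and 3, then TAC replicates 1, 2 and 3. In whole tissue, fewer cells of a type and less RNA per cell cannot be told apart.

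After TAC, 2410 of the 14274 genes rose (16.9%) and 2109 fell (14.8%), together 31.7%; 1279 of the rises and 438 of the falls were of at least 2-fold. Counting only whether the groups overlap, all TAC libraries lay above both sham libraries in 30.6% of the genes and below both in 33.1%, together 63.7%. These counts rest on few libraries. Without TAC replicate 3 there were 154 calls, without sham replicate 3 there were 128, and without sham replicate 2 there were 0 (2047 genes had an unadjusted p under 0.05 by the same limma test), while without TAC replicate 1 there were 5596 (19.7% of the genes tested higher and 20.2% lower) and without TAC replicate 2 there were 5966. The totals of normalized counts were 39699027 and 38781127 in the sham libraries and 25906622 to 31499798 in the TAC libraries, and 32.7% and 32.5% of the sham counts came from the mitochondrial genome against 18.1% to 25.3% of the TAC counts. Rescaling to equal totals moved the median log2 fold change of all genes from -0.01 to 0.40 and the calls to 6291 higher and 558 lower, and rescaling to equal totals without the mitochondrial genome gave 3836 higher and 999 lower, so a list is read below against that shift.

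TAC replicate 1 stood apart from the other libraries. The log2 values of 11001 genes differed from those of TAC replicates 2 and 3 with a standard deviation of 0.68 and 0.59, against 0.33 between TAC replicates 2 and 3 and 0.23 between the sham libraries. The atrial light chain gene Myl7 stood at 4, 6, 14839, 10 and 6 normalized counts, the adipocyte hormone gene Adipoq at 0, 0, 242, 0 and 1, and the mesothelial gene Msln at 29, 49, 1145, 17 and 41. The summed count of the 13 atrial markers was 20380 and 23310 in sham and 612496, 65949 and 142156 in TAC, of which the natriuretic peptide gene Nppa made up most in TAC. The summed count of 12 cardiomyocyte markers, among them the cardiac myosin genes Myh6 and Myl2, was 2612042 and 2482907 in sham and 1260683, 2013705 and 1909920 in TAC. Cardiomyocyte transcripts were thus present in every library, with the lowest sum in TAC replicate 1. The part of the atrial, adipocyte and mesothelial transcripts in the results below was not tested. Counts without TAC replicate 1 are given beside the lists that the results turn on. Of the 4487 called genes that could be tested without it, 4382 were called in the same direction.

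**Figure D1:**
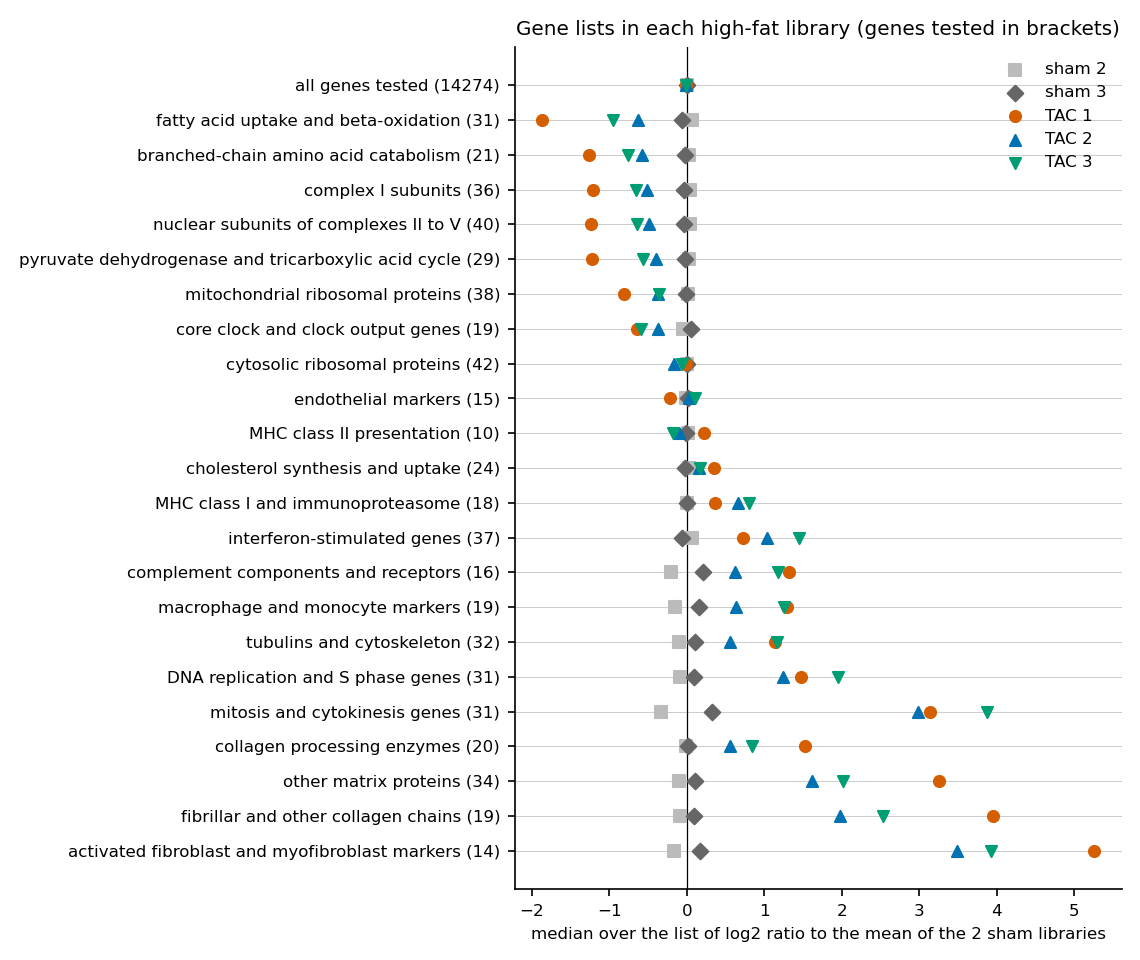
Medians of 22 gene lists and of all genes tested in each high-fat library. The x axis is the median over a list of the log2 ratio of the value + 1 to the mean of the sham libraries, and each symbol is a library; the y axis names the list with its number of genes tested. The 3 TAC libraries lie on the same side of both sham libraries for the oxidative lists and for the matrix, cell cycle and interferon lists, TAC replicate 1 farthest out for the oxidative and collagen lists and TAC replicate 3 for the mitosis, DNA replication and interferon lists.

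The genes of energy metabolism fell as a broad block. All 36 tested subunits of complex I, the entry point of the respiratory chain, fell, as did 32 of 40 nuclear subunits of complexes II to V, 24 of 38 mitochondrial ribosomal proteins, 22 of 31 fatty acid uptake and oxidation genes, 20 of 21 of branched-chain amino acid breakdown and 12 of 29 of pyruvate oxidation and the tricarboxylic acid cycle. Against these, 14.8% of all genes fell. One member of these 6 lists rose. The median log2 fold change was -0.82 for complex I, -0.79 for complexes II to V, -0.52 for the mitochondrial ribosome, -1.15 for fatty acid oxidation, -0.88 for branched-chain amino acids and -0.71 for the tricarboxylic acid cycle list, against -0.01 over all genes.

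Within complex I the fold changes were close to each other. Ndufa5, a subunit of its matrix arm, stood at 16472 and 16244 normalized counts in sham and at 5822, 10413 and 9470 in TAC, a log2 fold change of -0.98 ± 0.26 (SE, n = 2 and 3; limma adjusted p 0.0638). Ndufa1, a small membrane subunit, stood at 9003 and 8353 against 4353, 5815 and 5385 (-0.75 ± 0.15, adjusted p 0.0432), and Ndufa11, the least changed member, at 8895 and 8340 against 5021, 6905 and 6651 (-0.49 ± 0.17, adjusted p 0.0927). In all of them the groups did not overlap and TAC replicate 1 was the lowest library, as it was for each of the 36 subunits. It was the lowest TAC library for 82.1% of all genes that fell. Of 12 protein genes of the mitochondrial genome that were tested 2 fell, both of complex I, and 0 rose; leaving out TAC replicate 1 gave 7 falls, leaving out TAC replicate 2 gave 5, and there were 0 without TAC replicate 3, sham replicate 3 or sham replicate 2. ND6, which lies alone on its strand, fell from 5212 and 4398 to 1281, 1936 and 2124 (-1.46 ± 0.23, adjusted p 0.0352), and ND3 from 790 and 753 to 242, 471 and 416 (-1.09 ± 0.29, adjusted p 0.0627).

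Among the other complexes the 3 largest falls were of cytochrome oxidase subunits known as heart and muscle forms. Cox7a1 stood at 29529 and 27945 against 5875, 15857 and 11554 (log2 fold change -1.49 ± 0.41, adjusted p 0.0659), Cox8b at 18915 and 17882 against 5571, 12207 and 9886 (-1.07 ± 0.33, adjusted p 0.0796) and Cox6a2 at 42971 and 38600 against 13626, 26439 and 22002 (-1.03 ± 0.30, adjusted p 0.0729). The groups did not overlap for these genes. Cox8a, the form of subunit 8 that is made in most tissues, stood at 4258 and 4025 against 4649, 4137 and 4238 (0.07 ± 0.10, adjusted p 0.651) and was not called.

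Fatty acid oxidation showed the deepest list median of the block. Ech1, an auxiliary enzyme for unsaturated fatty acids, fell from 92610 and 82150 normalized counts to 11094, 39160 and 24583 (log2 fold change -1.99 ± 0.52, adjusted p 0.0616). Acaa2, the mitochondrial thiolase, fell from 53242 and 47926 to 9546, 25717 and 18622 (-1.61 ± 0.42, adjusted p 0.0604), and Decr1, a reductase for polyunsaturated chains, from 33592 and 29762 to 7493, 17543 and 14628 (-1.35 ± 0.37, adjusted p 0.0659). TAC replicate 1 was the lowest and TAC replicate 2 the highest TAC library for each of the 22 genes that fell, against 82.1% and 80.6% of all genes that fell. Neither reached a sham library in these 22. Entry steps were less uniform, and the following genes were not called. The fatty acid carrier Cd36 stood at 100692 and 94061 against 30725, 68908 and 64610 (-0.92 ± 0.41, adjusted p 0.155). The muscle form of the carnitine transferase, Cpt1b, stood at 880 and 913 against 390, 790 and 657 (-0.61 ± 0.30, adjusted p 0.181). Both were lower in every TAC library, and both were called without TAC replicate 1 (limma adjusted p 0.0198 and 0.0901). The liver form, Cpt1a, stood at 1508 and 1588 against 1735, 1789 and 1872 (0.22 ± 0.09, adjusted p 0.136).

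PPAR-alpha target genes moved in both directions: of 20 tested, 9 fell and 2 rose, against 14.8% and 16.9% of all genes. The acyl-CoA thioesterase Acot1 fell from 1745 and 1163 normalized counts to 112, 610 and 238 (log2 fold change -2.49 ± 0.68, adjusted p 0.0648). Plin4, a lipid droplet coat protein, fell from 5870 and 5910 to 2317, 3661 and 2708 (-1.05 ± 0.20, adjusted p 0.0408). The targets that rose were the uncoupling protein gene Ucp2, from 1056 and 1683 to 3221, 2722 and 2919 (1.14 ± 0.21, adjusted p 0.0382), and Angptl4, a secreted inhibitor of lipoprotein lipase, from 544 and 423 to 1380, 839 and 2043 (1.47 ± 0.37, adjusted p 0.0571). Pdk4, the kinase that shuts pyruvate dehydrogenase and a usual marker of PPAR-alpha activity, stood at 43078 and 31632 against 18768, 29997 and 32792, with overlapping groups and no call (-0.48 ± 0.30, adjusted p 0.275). Another kinase of the same family, Pdk3, rose from 59 and 60 to 457, 153 and 157 (1.88 ± 0.50, adjusted p 0.0627); it was the member of the 6 oxidative lists that rose. With TAC replicate 1 left out, 13 PPAR-alpha targets fell and 3 rose, and Acot1 had a log2 fold change of -1.90. With equal totals 5 fell and 4 rose, and without TAC replicate 3 or sham replicate 2 none was called, and without sham replicate 3 there was 1 rise.

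Of 20 tested regulators of mitochondrial genes, 8 fell and 0 rose, against 14.8% and 16.9% of all genes. But with equal totals 1 fell and 3 rose, and with equal totals without the mitochondrial genome 4 fell and 1 rose. The coactivator gene Ppargc1a, which encodes PGC-1alpha, fell from 3602 and 3642 to 1222, 2674 and 2012 (log2 fold change -0.95 ± 0.32, adjusted p 0.0892) and its partner Esrra, encoding ERR-alpha, from 5006 and 4445 to 2412, 3570 and 2762 (-0.71 ± 0.18, adjusted p 0.0585). The receptor gene Ppara stood at 2274 and 2620 against 716, 1905 and 1449 (-0.96 ± 0.40, adjusted p 0.136) and was not called, although its groups did not overlap. With equal totals neither Ppargc1a nor Esrra was called (adjusted p 0.129 and 0.131). The regulator list had 12 falls without TAC replicate 1 and 0 without TAC replicate 3, sham replicate 3 or sham replicate 2. Of 21 genes of branched-chain amino acid breakdown 20 fell. Among them were Bckdha, the first subunit of the committed dehydrogenase, at 15158 and 13058 against 3490, 7518 and 5296 (-1.44 ± 0.32, adjusted p 0.0491), and the phosphatase Ppm1k that activates that enzyme, at 3693 and 3935 against 960, 2562 and 1599 (-1.27 ± 0.39, adjusted p 0.0774).

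Glucose genes had no common direction: of 27 tested, 5 rose and 6 fell (18.5% and 22.2%), near the 16.9% and 14.8% of all genes. With equal totals 14 rose and 3 fell, and the list's median of -0.07 became 0.35. When TAC replicate 1 was left out, 6 rose and 11 fell, and without TAC replicate 3, sham replicate 3 or sham replicate 2 none was called. Hexokinase 1, the form made in most tissues, rose from 3863 and 3842 to 6740, 5547 and 6407 (Hk1, log2 fold change 0.69 ± 0.12, adjusted p 0.0376), while the muscle form Hk2 fell from 9148 and 8957 to 4607, 6641 and 6695 (-0.62 ± 0.19, adjusted p 0.0784). The same contrast was seen for the glucose carriers, with Slc2a1 at 368 and 437 against 885, 540 and 626 (0.74 ± 0.23, adjusted p 0.0787) and the insulin-responsive Slc2a4 at 13147 and 13510 against 4252, 9681 and 7634 (-0.97 ± 0.34, adjusted p 0.0985). The lactate exporter Slc16a3 rose from 27 and 27 to 510, 100 and 166 (2.87 ± 0.66, adjusted p 0.0521), and Slc16a3 had a log2 fold change of 2.21 without TAC replicate 1.

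The size of the oxidative block depended on library and scale. In the absence of TAC replicate 1, 36 complex I genes, 39 of complexes II to V, 30 of the mitochondrial ribosome, 29 of fatty acid oxidation, 20 of branched-chain amino acids and 27 of the tricarboxylic acid cycle list fell. With values rescaled to equal totals, 19, 15, 5, 17, 13 and 7 fell in the same order, and without TAC replicate 3, sham replicate 3 or sham replicate 2 none of them was called. Beside the lists, the summed cardiomyocyte markers were lower in all TAC libraries, which was not tested as a part of the fall. Of the 12 markers 1 was called lower (8.3%, against 14.8% of all genes). Their median log2 fold change was -0.51, and with equal totals it was -0.09.

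**Figure D2:**
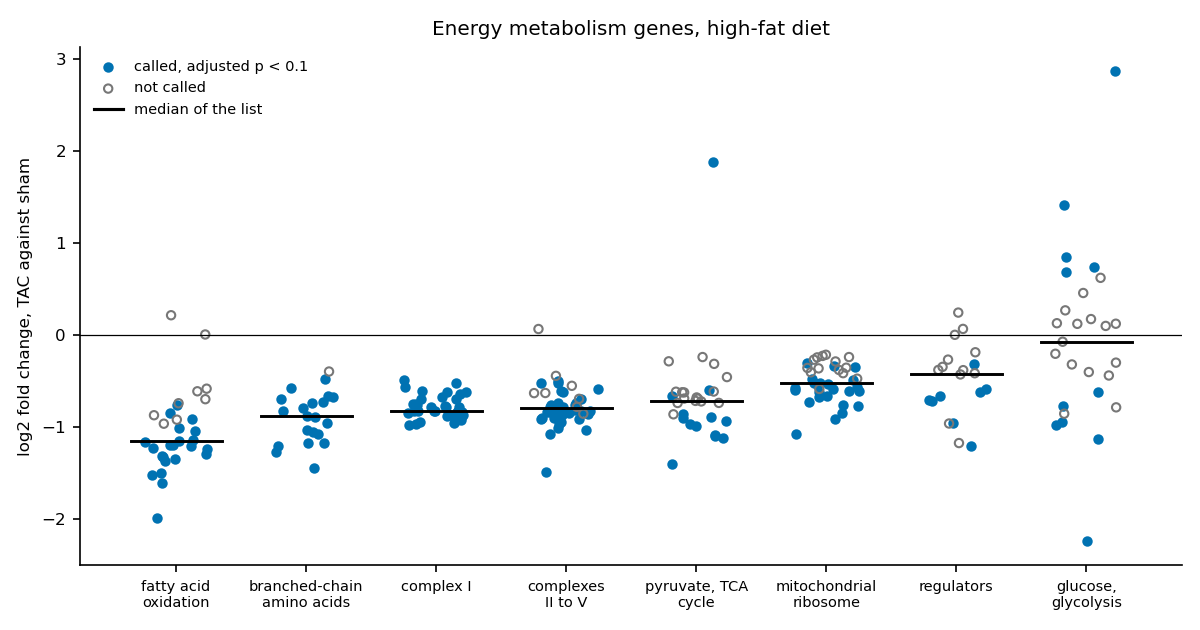
Log2 fold changes of energy metabolism genes, TAC against sham on the high-fat diet. Each point is a gene tested, filled where the limma adjusted p was under 0.1, and the line is the median of the list. Every complex I point is filled and below 0, while the glucose list spreads on both sides of 0.

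The circadian clock genes changed in a divided way. The clock is a loop in which the activators Arntl (BMAL1), Clock and Npas2 switch on Per, Cry and Nr1d genes, whose products switch the activators off, and the output factors Dbp, Tef and Hlf follow the activators. Of 19 clock genes tested, 2 rose and 10 fell, against 16.9% and 14.8% of all genes. Those that rose were both activators. Among those that fell were the repressors Per2, Per3, Cry2, Ciart, Nr1d1 and Nr1d2 and the outputs Dbp, Tef and Hlf. Arntl stood at 301 and 298 normalized counts in sham and at 604, 491 and 540 in TAC (log2 fold change 0.86 ± 0.13, adjusted p 0.0324), and Npas2 at 91 and 102 against 145, 157 and 171 (0.70 ± 0.17, adjusted p 0.0547). Both groups were tight and did not overlap.

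Per3 fell from 654 and 701 to 253, 327 and 206 (log2 fold change -1.39 ± 0.21, adjusted p 0.0316), Dbp from 1811 and 2161 to 675, 1031 and 789 (-1.27 ± 0.20, adjusted p 0.034) and Nr1d1, which encodes the repressor REV-ERB-alpha, from 2642 and 2503 to 1640, 1775 and 1521 (-0.65 ± 0.10, adjusted p 0.0352). Hlf fell most, from 796 and 896 to 209, 439 and 169 (-1.76 ± 0.40, adjusted p 0.0517). All TAC libraries lay below both sham libraries in each of them. Per1, a Per gene that also responds to hormones and calcium, stood at 1214 and 1432 against 1630, 841 and 1134 and overlapped, and Clock at 1441 and 1434 against 1734, 1475 and 1650; neither was called (adjusted p 0.639 and 0.272).

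The clock calls held without TAC replicate 1, where 2 genes rose and 11 fell. With equal totals 5 rose and 6 fell, and Arntl and Per3 were called in their direction in that setting too (adjusted p 0.0201 and 0.0343). Without TAC replicate 3, sham replicate 3 or sham replicate 2 no clock gene was called. On the fat-free diet 1 of the 19 genes rose and 2 fell by the same test, with Arntl at a log2 fold change of -0.12 and Per3 at -0.25. The difference between the diets had an unadjusted p under 0.05 for 6 of the 19, among them Per3 (difference -1.15, p 0.0133, limma) and Dbp (-0.99, p 0.0288), and an adjusted p under 0.1 for 0 of them. The time of day at which the hearts were taken is not given in the labels, and its part in the clock values was not tested.

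**Figure D3:**
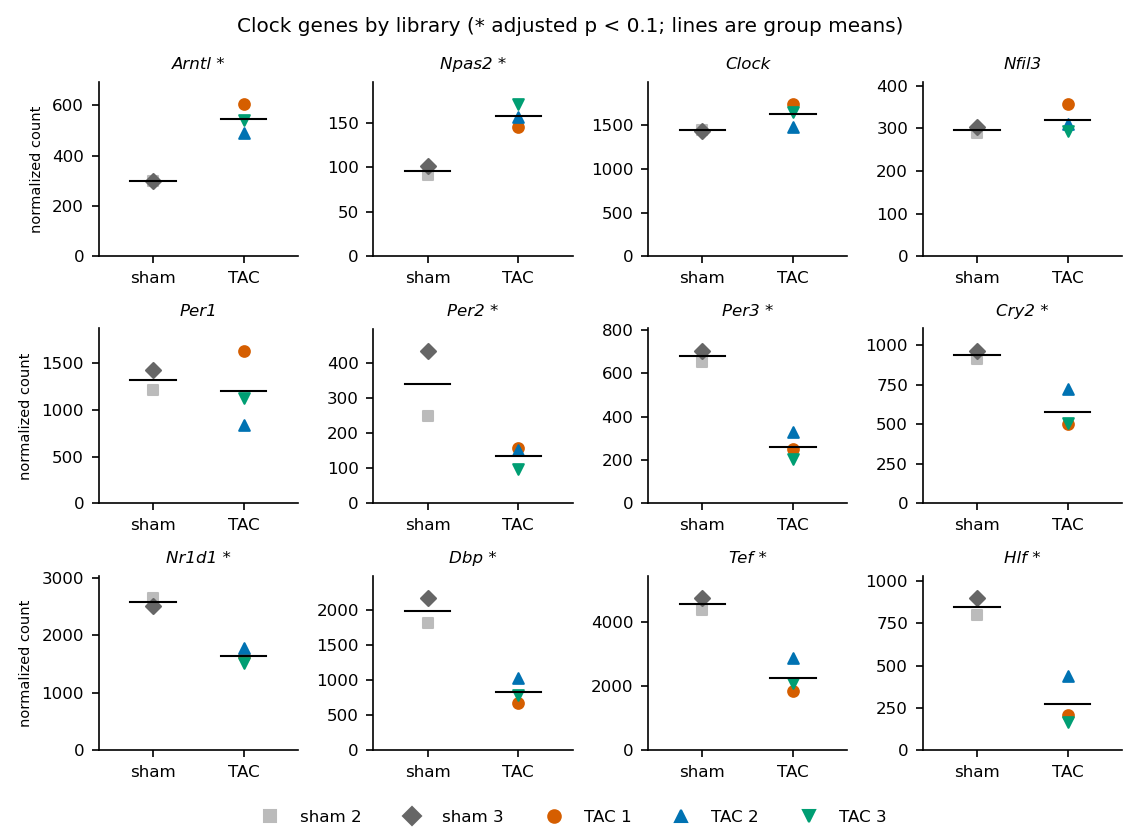
Normalized counts of 12 clock genes in each high-fat library. Each panel is a gene, symbols are libraries, lines are group means and the y axes start at 0. The activators Arntl and Npas2 are higher in all 3 TAC libraries, and Per2, Per3, Cry2, Nr1d1, Dbp, Tef and Hlf are lower in all of them.

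Of 24 genes of cholesterol synthesis and uptake 7 rose and 1 fell, against 16.9% and 14.8% of all genes. Sqle, the epoxidase that oxidizes squalene, stood at 33 and 17 against 139, 58 and 133 (log2 fold change 2.06 ± 0.49, adjusted p 0.0543), and Soat1, which stores cholesterol as ester, at 54 and 106 against 392, 226 and 286 (1.94 ± 0.36, adjusted p 0.0391). Fdft1, the squalene synthase of the committed step to sterols, went the other way, from 1263 and 1168 to 328, 765 and 530 (-1.25 ± 0.34, adjusted p 0.0648). Of 21 genes of fatty acid synthesis, elongation and desaturation 5 rose and 3 fell, close to the shares of all genes. The fatty acid synthase Fasn rose from 479 and 404 to 840, 633 and 618 (0.65 ± 0.18, adjusted p 0.0639), and the desaturase Fads2 from 60 and 60 to 188, 115 and 145 (1.27 ± 0.25, adjusted p 0.0424). Thrsp, a regulator of fatty acid synthesis, fell from 761 and 885 to 376, 399 and 489 (-0.97 ± 0.15, adjusted p 0.035), and the sterol receptor gene Nr1h3 from 597 and 472 to 352, 346 and 330 (-0.63 ± 0.14, adjusted p 0.0496). For this list 5 rose and 5 fell without TAC replicate 1, 11 rose and 1 fell with equal totals, 1 fell without TAC replicate 3, and none was called without sham replicate 3 or sham replicate 2. The cholesterol count was 7 higher and 1 lower without TAC replicate 1, 17 higher and 1 lower with equal totals, and 0 without TAC replicate 3, sham replicate 3 or sham replicate 2.

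The integrated stress response ties amino acid supply to translation. Of its 21 genes tested 7 rose and 4 fell, against 16.9% and 14.8% of all genes. Without TAC replicate 1, 6 rose and 6 fell, with equal totals 9 rose and 2 fell, and without TAC replicate 3, sham replicate 3 or sham replicate 2 none was called. Among those that rose, Psat1, of serine synthesis, went from 137 and 126 to 326, 212 and 439 (log2 fold change 1.24 ± 0.31, adjusted p 0.0571), and the amino acid carrier Slc7a5 from 152 and 154 to 428, 238 and 456 (1.23 ± 0.30, adjusted p 0.056). The factor that drives the response, Atf4, stood at 2354 and 2571 against 3214, 2315 and 2768 and was not called (adjusted p 0.483), and its target Cth, which makes cysteine, fell from 62 and 76 to 11, 19 and 11 (-2.29 ± 0.36, adjusted p 0.0349).

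Matrix genes rose together. All 19 listed collagen chains, 15 of 20 collagen processing enzymes and 27 of 34 other matrix proteins rose and none fell. Over all genes 16.9% rose and 14.8% fell. The lists do not hold every matrix gene and were chosen with earlier results of these data known. Col8a1, a short chain of vessel walls and scar, stood at 569 and 684 normalized counts in sham and 11614, 4456 and 7411 in TAC (log2 fold change 3.54 ± 0.39, adjusted p 0.0194), and the basement membrane chain Col15a1 at 2284 and 2588 against 13060, 8710 and 11999 (2.19 ± 0.20, adjusted p 0.0169). The cross-linking enzyme Lox rose from 138 and 139 to 7021, 1155 and 1978 (4.18 ± 0.72, adjusted p 0.0373), and by 3.44 on the log2 scale without TAC replicate 1. TAC replicate 1 was the highest library for 16 of the 19 chains, against 63.8% of all genes that rose. The lowest TAC library stood above both sham libraries in every listed chain, against 30.6% of all genes. With TAC replicate 1 left out, 19 chains, 17 enzymes and 29 other matrix genes rose; without TAC replicate 3, 4, 0 and 5 did, without sham replicate 3, 2, 0 and 4, and without sham replicate 2 none.

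The activated fibroblast list, of genes made by fibroblasts that have turned to matrix synthesis, held 12 rises among 14 genes with a median log2 fold change of 4.40. Thbs4, a matrix glycoprotein of stressed muscle, stood at 81 and 95 against 5386, 2352 and 4089 (5.39 ± 0.34, adjusted p 0.0156), and Cilp, a matrix protein that binds TGF-beta, at 143 and 279 against 8136, 4395 and 6323 (4.92 ± 0.36, adjusted p 0.0156). TAC replicate 1 was highest for all 12 genes that rose and TAC replicate 2 lowest among the TAC libraries, against 63.8% and 77.6% of all genes that rose. In these 12 no TAC library reached the sham range. General fibroblast markers were less uniform, with 6 of 14 higher and 2 lower, against 16.9% and 14.8% of all genes.

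Signals that act on fibroblasts rose in part. Of 24 genes of TGF-beta, BMP and activin signaling 11 rose and 1 fell, against 16.9% and 14.8% of all genes. The ligand Tgfb2 stood at 231 and 315 against 2297, 870 and 1113 (log2 fold change 2.27 ± 0.42, adjusted p 0.0387), Tgfb1 at 490 and 519 against 715, 627 and 696 (0.43 ± 0.11, adjusted p 0.0601), and both receptor genes rose, Tgfbr1 by 0.86 ± 0.18 (adjusted p 0.0476) and Tgfbr2 by 0.86 ± 0.16 (adjusted p 0.0391). Bmp6, a BMP ligand, was the member that fell, from 611 and 630 to 358, 363 and 286 (-0.89 ± 0.15, adjusted p 0.0358). When TAC replicate 1 was left out, 10 rose and 2 fell, and without TAC replicate 3, sham replicate 3 or sham replicate 2 none was called.

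Of 20 genes of Wnt signaling 8 rose and 0 fell, against 16.9% and 14.8% of all genes. Among those that rose were receptors, a ligand and secreted modulators. The receptor Fzd1 went from 162 and 173 to 765, 370 and 436 (log2 fold change 1.57 ± 0.31, adjusted p 0.0429), Fzd2 from 81 and 83 to 498, 213 and 211 (1.77 ± 0.40, adjusted p 0.0515), and the secreted antagonist Sfrp1 from 321 and 402 to 5871, 1367 and 2073 (2.83 ± 0.59, adjusted p 0.0464; for Sfrp1 2.23 without TAC replicate 1). Axin2, a general target of canonical Wnt signaling, stood at 123 and 122 against 73, 109 and 63 and was not called (adjusted p 0.151). In the absence of TAC replicate 1, 8 Wnt genes rose and 1 fell. Among 25 growth factor genes 12 rose and 2 fell, and without TAC replicate 1, 10 rose and 3 fell. Igf1 rose from 284 and 494 to 2638, 1076 and 1681 (2.17 ± 0.42, adjusted p 0.0415), and Hbegf, a ligand of the EGF receptor, from 480 and 550 to 1283, 978 and 997 (1.07 ± 0.16, adjusted p 0.0298). Bdnf, a neurotrophin, fell from 359 and 324 to 191, 229 and 261 (-0.60 ± 0.17, adjusted p 0.0714). In neither list was a gene called without TAC replicate 3, sham replicate 3 or sham replicate 2.

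Over all genes 16.9% rose and 14.8% fell. Of 31 mitosis genes tested 30 rose, and of 31 genes of DNA replication 25 rose and 1, the nucleotide hydrolase gene Dut, fell. Their promoters are shown because division genes are known to share short elements near the start of transcription: the CCAAT box, bound by NF-Y, and the CHR element TTTGAA, bound by the MuvB complex. In RefSeq promoters of mouse build GRCm38.p6, the 250 bases before the start were searched on both strands for CCAAT and for TTTGAA. The CCAAT box was found in 22 of the 26 mitosis genes that had a promoter in the table (84.6%) and in 37.5% of all 27025 genes there; TTTGAA was found in 10 of the 26 (38.5%) and in 18.3% of all genes. Among all 32851 promoters of that length the shares were 33.8% and 16%. Below, for 3 members, the capitals mark either motif on either strand (ATTGG and TTCAAA where reversed), and no match of either overlaps one of the other. The mitotic cyclin gene Ccnb2 is at chr9:70421555-70421804 on the minus strand, the proliferation marker Mki67 at chr7:135716380-135716629 on the minus strand, and Cdc20, which activates the complex that ends mitosis, at chr4:118437344-118437593 on the minus strand.
Ccnb2: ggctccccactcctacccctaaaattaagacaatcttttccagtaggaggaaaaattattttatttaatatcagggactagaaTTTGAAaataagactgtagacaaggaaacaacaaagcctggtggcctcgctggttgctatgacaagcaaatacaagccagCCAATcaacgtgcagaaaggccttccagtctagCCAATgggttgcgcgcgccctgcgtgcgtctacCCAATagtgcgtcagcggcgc
Mki67: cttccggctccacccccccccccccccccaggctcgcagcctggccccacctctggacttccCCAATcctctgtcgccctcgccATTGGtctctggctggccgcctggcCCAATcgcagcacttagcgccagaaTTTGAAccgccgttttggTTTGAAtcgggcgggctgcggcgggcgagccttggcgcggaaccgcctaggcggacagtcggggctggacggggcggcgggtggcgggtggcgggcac
Cdc20: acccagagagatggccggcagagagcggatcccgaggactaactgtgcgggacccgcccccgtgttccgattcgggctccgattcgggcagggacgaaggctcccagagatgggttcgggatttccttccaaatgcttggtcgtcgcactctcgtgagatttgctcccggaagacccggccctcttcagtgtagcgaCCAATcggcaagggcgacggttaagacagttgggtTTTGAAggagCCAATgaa

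Ccnb2, whose window holds CCAAT 3 times, stood at 35 and 31 normalized counts in sham and 366, 313 and 559 in TAC (log2 fold change 3.56 ± 0.28, adjusted p 0.0156). Mki67 stood at 130 and 250 against 1434, 1433 and 2706 (3.29 ± 0.39, adjusted p 0.0208), and Cdc20 at 29 and 32 against 346, 261 and 471 (3.48 ± 0.27, adjusted p 0.0156). The groups were far apart in all of them, and TAC replicate 3 was the highest library. It was the highest for 29 of the 30 mitosis genes that rose and for 24 of the 25 replication genes, against 32.8% of all genes that rose. A motif match is a description of the letters and was not tested as a binding site.

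In the replication list, Rrm2, the subunit that limits nucleotide reduction, rose from 80 and 108 to 366, 383 and 555 (log2 fold change 2.19 ± 0.24, adjusted p 0.0194), and the helicase gene Mcm5 from 108 and 128 to 393, 362 and 641 (1.93 ± 0.27, adjusted p 0.0288). The replication clamp Pcna was not called, at 689 and 764 against 776, 978 and 1200 (0.42 ± 0.19, adjusted p 0.166). Of 13 cyclins and inhibitors of the G1 phase 4 rose and 2 fell (30.8% and 15.4%), against 16.9% and 14.8% of all genes. Leaving out TAC replicate 1 gave 5 rises and 2 falls. The inhibitor of the cell cycle Cdkn1c fell from 608 and 572 to 141, 256 and 150 (-1.74 ± 0.28, adjusted p 0.035), as did Cdkn1b, from 972 and 985 to 655, 809 and 756 (-0.41 ± 0.12, adjusted p 0.074), though Cdkn1b turned to 0.01 with equal totals. The mitosis count was 30 without TAC replicate 1, 23 without TAC replicate 3 and 25 without sham replicate 3, and that for replication 27, 7 and 3; without sham replicate 2 none was called. The G1 list had no call without TAC replicate 3, sham replicate 3 or sham replicate 2.

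Cenpf, a kinetochore protein gene, rose from 276 and 350 to 420, 772 and 690 (log2 fold change 0.96 ± 0.28, adjusted p 0.0728) and fell on the fat-free diet (-0.71). The difference of 1.68 between the diets had an unadjusted p of 0.000387 and an adjusted p of 0.794. Without TAC replicate 1 of the high-fat diet its adjusted p was 0.0989, the only gene of that fit under 0.1.

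Interferon-stimulated genes rose as a group: against 16.9% and 14.8% of all genes, 27 of 37 rose and 0 fell. These genes are switched on through the interferon-stimulated response element, whose core is a pair of GAAA tracts with a 2-base gap; the promoters of 3 members are shown for that element. A GAAA tract followed by any 2 bases and a further GAAA tract, on either strand, was found in the 250 bases before the start in 12 of the 27 listed genes with a RefSeq promoter (44.4%), in 3.46% of all 27025 genes and in 2.98% of all 32851 promoters. The 12 include Rsad2, Stat2, Gbp2 and Gbp3, which were not called, while Oasl2, which rose, held no match. Whether a match goes with the rise was not tested. Capitals mark each match, on the strand as printed or its reverse. Isg15, the ubiquitin-like modifier, is at chr4:156200819-156201068 on the minus strand and its 3 matches overlap one another. Ifit3 and Ifit1, which bind or restrain viral RNA, are at chr19:34583279-34583528 and chr19:34640639-34640888 on the plus strand, with 2 separate matches each.
Isg15: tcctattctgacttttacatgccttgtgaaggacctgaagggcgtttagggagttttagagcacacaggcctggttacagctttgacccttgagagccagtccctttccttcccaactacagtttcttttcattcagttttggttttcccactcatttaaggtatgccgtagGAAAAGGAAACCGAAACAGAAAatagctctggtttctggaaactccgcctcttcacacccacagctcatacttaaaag
Ifit3: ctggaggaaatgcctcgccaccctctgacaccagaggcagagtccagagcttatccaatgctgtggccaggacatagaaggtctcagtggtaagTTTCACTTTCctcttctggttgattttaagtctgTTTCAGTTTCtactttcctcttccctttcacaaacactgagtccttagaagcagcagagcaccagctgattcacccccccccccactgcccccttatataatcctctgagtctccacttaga
Ifit1: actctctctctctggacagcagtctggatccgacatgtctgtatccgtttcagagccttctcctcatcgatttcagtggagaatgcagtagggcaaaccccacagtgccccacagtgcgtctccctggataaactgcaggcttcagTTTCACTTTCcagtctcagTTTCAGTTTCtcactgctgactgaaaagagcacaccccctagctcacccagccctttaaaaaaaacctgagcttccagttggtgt

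Isg15 stood at 114 and 99 normalized counts in sham and 228, 282 and 431 in TAC (log2 fold change 1.50 ± 0.29, adjusted p 0.041), Ifit3 at 183 and 189 against 356, 494 and 761 (1.45 ± 0.31, adjusted p 0.0478) and Ifit1 at 178 and 155 against 325, 445 and 609 (1.42 ± 0.27, adjusted p 0.0417). Oasl2, of the 2-5A synthetase family, had the smallest p of the list, at 170 and 174 against 419, 534 and 555 (1.53 ± 0.16, adjusted p 0.0194). TAC replicate 3 was highest for 26 of the 27 genes that rose and TAC replicate 1 was lowest among the TAC libraries for 22 of them, against 11% of all genes that rose. The chemokine Cxcl10, an interferon target outside the list, followed the same order with 7 and 7 against 42, 81 and 167 (3.39 ± 0.58, adjusted p 0.037).

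Not every member was called. Rsad2, an antiviral enzyme, stood at 955 and 710 against 454, 1156 and 1628, with TAC replicate 1 below both sham libraries, and was not called (adjusted p 0.791). Without TAC replicate 1, 34 of the 37 rose and 0 fell. Without TAC replicate 3, 4 rose, and without sham replicate 3 or sham replicate 2 none.

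**Figure D4:**
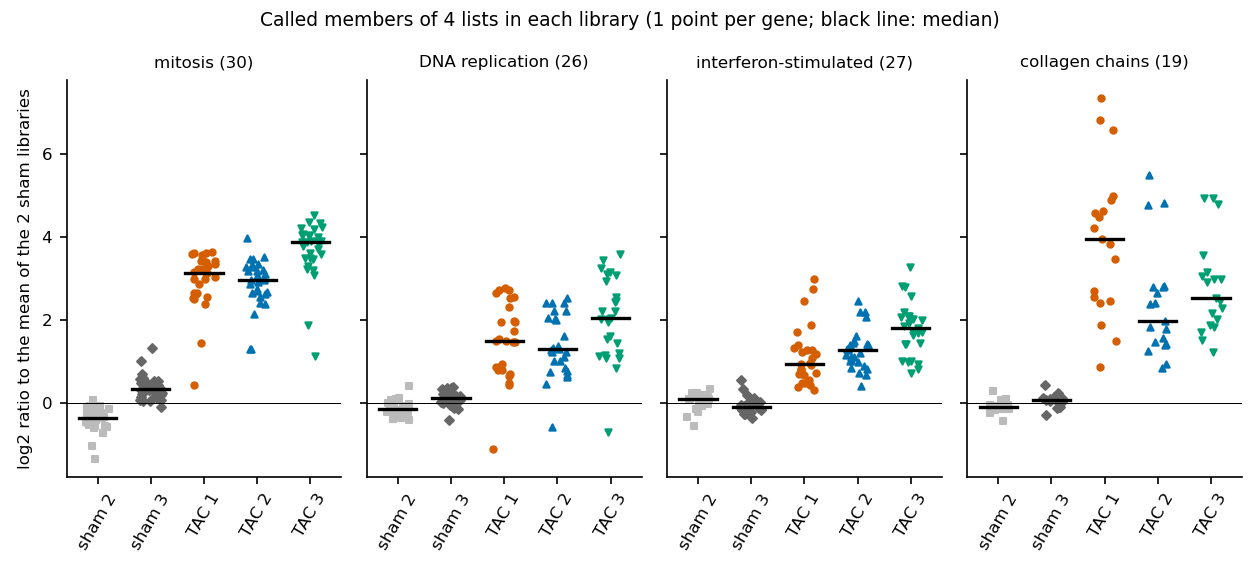
Called members of 4 lists in each high-fat library. The y axis is the log2 ratio of the value + 1 to the mean of the sham libraries, each point is a gene that passed an adjusted p of 0.1, and the black line is the median; in the replication panel the gene below 0 in TAC is Dut. TAC replicate 3 has the highest median for mitosis, DNA replication and interferon genes, and TAC replicate 1 for collagen chains.

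Of 18 genes of MHC class I and the immunoproteasome, which present peptides from inside the cell, 10 rose and 0 fell: the peptide transporter Tap1 went from 233 and 228 to 453, 512 and 540 (log2 fold change 1.11 ± 0.13, adjusted p 0.0206) and the shared light chain B2m from 5520 and 6030 to 10341, 10391 and 13004 (0.95 ± 0.15, adjusted p 0.0334). Of 10 genes of MHC class II presentation, used by macrophages and dendritic cells, 2 rose, near the 16.9% of all genes, and those are the lysosomal enzymes Ctss, at 560 and 531 against 2199, 1163 and 1804 (1.61 ± 0.27, adjusted p 0.036), and Ifi30, at 138 and 193 against 537, 231 and 339 (1.09 ± 0.37, adjusted p 0.0919). No class II chain was called, and the difference between the class I and class II lists was not tested. Cd74, the invariant chain, stood at 3234 and 3035 against 2975, 2811 and 2268 (-0.23 ± 0.14, adjusted p 0.262), with every TAC library below both sham libraries, and H2-Ab1 at 1402 and 1438 against 1523, 1343 and 1116 (adjusted p 0.608). With TAC replicate 1 left out, 13 class I genes rose and 1 fell, and 2 class II genes rose and 2 fell; without TAC replicate 3, sham replicate 3 or sham replicate 2 none was called.

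On the fat-free diet 8 of these 10 class II genes rose, Cd74 among them with a log2 fold change of 0.68. The difference between the diets was below 0 for all 10, against 54.4% of all genes. Its unadjusted limma p was under 0.05 for 6 of them, but it passed an adjusted p of 0.1 for 0. The median difference was -0.92 for the list against -0.03 over all genes.

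Macrophage markers rose, 14 of 19. Ms4a7, of macrophages that enter or renew after injury, stood at 75 and 92 against 532, 373 and 548 (log2 fold change 2.51 ± 0.22, adjusted p 0.0169), Adgre1, which encodes F4/80, at 317 and 343 against 1163, 759 and 997 (1.54 ± 0.19, adjusted p 0.0239), and Trem2, a lipid receptor, at 21 and 51 against 329, 160 and 186 (2.67 ± 0.47, adjusted p 0.0379). In these the groups did not overlap. Among the 5 members not called were Lyve1, Timd4 and Folr2, which are known from resident macrophages: Lyve1 stood at 416 and 797 against 883, 814 and 505, Timd4 at 29 and 31 against 17, 34 and 20, and Folr2 at 192 and 238 against 411, 231 and 291 (adjusted p 0.544, 0.476 and 0.212). The summed macrophage markers were 8675 and 11331 in sham and 25216, 15417 and 21146 in TAC. When TAC replicate 1 was left out, 13 rose; without TAC replicate 3, 2, without sham replicate 3, 1, and without sham replicate 2, none.

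The complement starter genes rose with them, C1qa from 941 and 1118 to 2518, 1598 and 2439 (log2 fold change 1.06 ± 0.22, adjusted p 0.0465) and C1qb from 988 and 1204 to 3046, 1828 and 2894 (1.21 ± 0.24, adjusted p 0.0432), as part of 8 rises among 16 complement genes. Both are also on the macrophage list. Beside the counts of these lists, 16.9% of all genes tested rose and 14.8% fell. In the absence of TAC replicate 1, 10 complement genes rose; without sham replicate 3, 1 did, and without TAC replicate 3 or sham replicate 2, none. Of 23 chemokine and receptor genes 10 rose and 3 fell, and without TAC replicate 1, 11 rose and 3 fell; without TAC replicate 3, 1 rose, and without sham replicate 3 or sham replicate 2 none was called. The fractalkine receptor Cx3cr1 rose from 140 and 142 to 390, 370 and 488 (1.54 ± 0.16, adjusted p 0.0194), while the chemokine genes Cxcl12, Cxcl14 and Ccl11 fell; Cxcl12, which keeps progenitor cells in place, went from 5992 and 6073 to 3281, 4440 and 4765 (-0.55 ± 0.18, adjusted p 0.0835). In cytokine signaling Tnfrsf12a, the receptor of TWEAK, rose from 1173 and 1256 to 4170, 3043 and 3861 (1.59 ± 0.15, adjusted p 0.0173), and the feedback inhibitor Socs3 from 56 and 54 to 315, 146 and 237 (1.99 ± 0.33, adjusted p 0.0367). The cytokine gene Il6 is listed at 0 and 0 in sham and at 38, 2 and 20 in TAC.

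Of 32 genes of tubulins and the cytoskeleton 25 rose and 1 fell, against 16.9% and 14.8% of all genes. Vim, the intermediate filament gene of non-muscle cells, stood at 3912 and 5338 against 22125, 13019 and 17557 (log2 fold change 1.91 ± 0.26, adjusted p 0.0284), and Tubb5, a beta-tubulin, at 1989 and 2471 against 6309, 4414 and 6992 (1.39 ± 0.22, adjusted p 0.0352). TAC replicate 2 was the lowest TAC library for all 25, against 77.6% of all genes that rose, and still stood above sham in both genes. The tubulin that fell, Tuba8, went from 4544 and 4362 to 1349, 2713 and 2609 (-1.07 ± 0.31, adjusted p 0.0727). The count was 27 rises and 2 falls without TAC replicate 1, and 0 without TAC replicate 3, sham replicate 3 or sham replicate 2.

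Of 32 antioxidant genes tested, 13 fell and 9 rose, against 14.8% and 16.9% of all genes. But with equal totals 4 fell and 16 rose, where 558 of all genes fell and 6291 rose. With equal totals without the mitochondrial genome 9 fell and 14 rose, where 999 of all genes fell and 3836 rose. Without TAC replicate 1, 14 fell and 10 rose, and without TAC replicate 3, sham replicate 3 or sham replicate 2 none was called. The mitochondrial superoxide dismutase Sod2 fell from 21583 and 20803 to 7163, 15080 and 12720 (log2 fold change -0.93 ± 0.32, adjusted p 0.0957) and the glutathione transferase Gstm1 from 5047 and 4839 to 1307, 2504 and 1741 (-1.47 ± 0.27, adjusted p 0.0381). Cybb, the NADPH oxidase subunit of phagocytes, rose from 294 and 295 to 716, 571 and 728 (1.18 ± 0.14, adjusted p 0.0228), and Hmox1, which breaks down heme, from 156 and 262 to 860, 367 and 649 (1.54 ± 0.40, adjusted p 0.0611).

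Of 15 endothelial markers 0 rose and 2 fell, near the 14.8% of all genes that fell, and with equal totals 9 rose and 2 fell. With TAC replicate 1 left out, 2 rose and 2 fell, and without TAC replicate 3, sham replicate 3 or sham replicate 2 none was called. Aqp1, the water channel of heart capillaries, was among those that fell, at 10839 and 12984 against 4631, 6177 and 4773 (log2 fold change -1.20 ± 0.17, adjusted p 0.0288), while the junction gene Cdh5 stood at 7052 and 6158 against 5284, 7224 and 9050 (adjusted p 0.792). Vegfa, the main angiogenic factor, fell from 8286 and 7231 to 4064, 5370 and 5642 (-0.64 ± 0.17, adjusted p 0.0646), and Hif1a, the hypoxia factor, rose from 2250 and 2304 to 4663, 3845 and 5147 (0.99 ± 0.14, adjusted p 0.0296). The hemoglobin genes Hba-a1, at 1064 and 741 against 364, 474 and 187 (-1.48 ± 0.41, adjusted p 0.0658), and Hbb-bs, at 6605 and 4553 against 2488, 3035 and 1237 (-1.38 ± 0.40, adjusted p 0.0712), fell, and how much blood each heart held was not tested. Reads of the near-identical hemoglobin alpha genes may be split between them.

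Several of the largest rises were of secreted proteins. Cthrc1, which is released by activated fibroblasts, stood at 5 and 2 normalized counts in sham and 2823, 483 and 651 in TAC (log2 fold change 7.83 ± 0.79, adjusted p 0.0188), and C1qtnf3, a secreted relative of C1q, at 2 and 2 against 615, 303 and 300 (adjusted p 0.0152). Sprr1a, a stress-induced protein of heart muscle, stood at 4 and 6 against 3305, 463 and 574 (7.34 ± 0.86, adjusted p 0.0206). Without TAC replicate 1 the log2 fold change was 7.05 for Cthrc1 and 6.45 for Sprr1a. Sham values this low make the fitted size depend on the 1 that is added before the logarithm. The hyaluronidase gene Cemip and the prolyl hydroxylase gene P4ha3 are listed at 0 in both sham libraries, with 347, 88 and 43 and with 308, 51 and 80 in TAC.

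Enzyme genes were among the largest falls. Inmt, a methyltransferase, went from 288 and 590 to 36, 124 and 13 (log2 fold change -3.36 ± 0.91, adjusted p 0.0634), and Cyp26b1, which degrades retinoic acid, from 394 and 244 to 75, 51 and 16 (-2.94 ± 0.65, adjusted p 0.0495). The groups did not overlap in either of them, which was a condition for naming a gene among the largest falls. Mmp9, a protease of neutrophils, fell from 307 and 44 to 9, 19 and 17 (-2.94 ± 0.83, adjusted p 0.0686), with sham replicate 2 far above sham replicate 3; without sham replicate 2 Mmp9 was not called (-1.55, adjusted p 0.348). Without TAC replicate 3 neither Inmt (-2.60, adjusted p 0.145) nor Cyp26b1 (-2.31, adjusted p 0.11) was called.

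On the fat-free diet 3405 of 14329 genes were called (23.8%), and 2305 genes were called on both diets, which is 51% of the high-fat calls and 67.7% of the fat-free calls; 2302 of them had the same direction. The 2 comparisons share no libraries. Of 14032 genes in the test of the difference, 0 passed an adjusted p of 0.1 and 608 had an unadjusted p under 0.05 (4.33%) by limma, so no gene is called different between the diets.

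The oxidative lists were among those with unequal counts. Of the complex I subunits 36 fell on the high-fat diet and 6 on the fat-free diet, with medians of -0.82 and -0.30, and of complexes II to V 32 and 7. The difference between diets was below 0 for all 36 complex I subunits, against 54.4% of all genes, with a median of -0.48 against -0.03. By limma its unadjusted p was under 0.05 for 4 of them and its adjusted p under 0.1 for 0. With equal totals the high-fat median of complex I was -0.40. The fat-free totals were 31274316 to 33809757 in sham and 27731007 to 30855962 in TAC. The part of these scales in the difference was not tested. TAC replicate 1 of the high-fat diet was the lowest TAC library for all 36 subunits (82.1% over all genes that fell), and without it their high-fat median was -0.60. Fatty acid oxidation had 22 falls on each diet, with medians of -1.15 and -0.56, and interferon-stimulated genes had medians of 1.13 and 1.23. The median fold change of the activated fibroblast list was 4.40 against 2.25, and without TAC replicate 1 of the high-fat diet it was 3.79. That library was highest in all 12 genes that rose there, against 63.8% of all genes that rose.

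**Figure D5:**
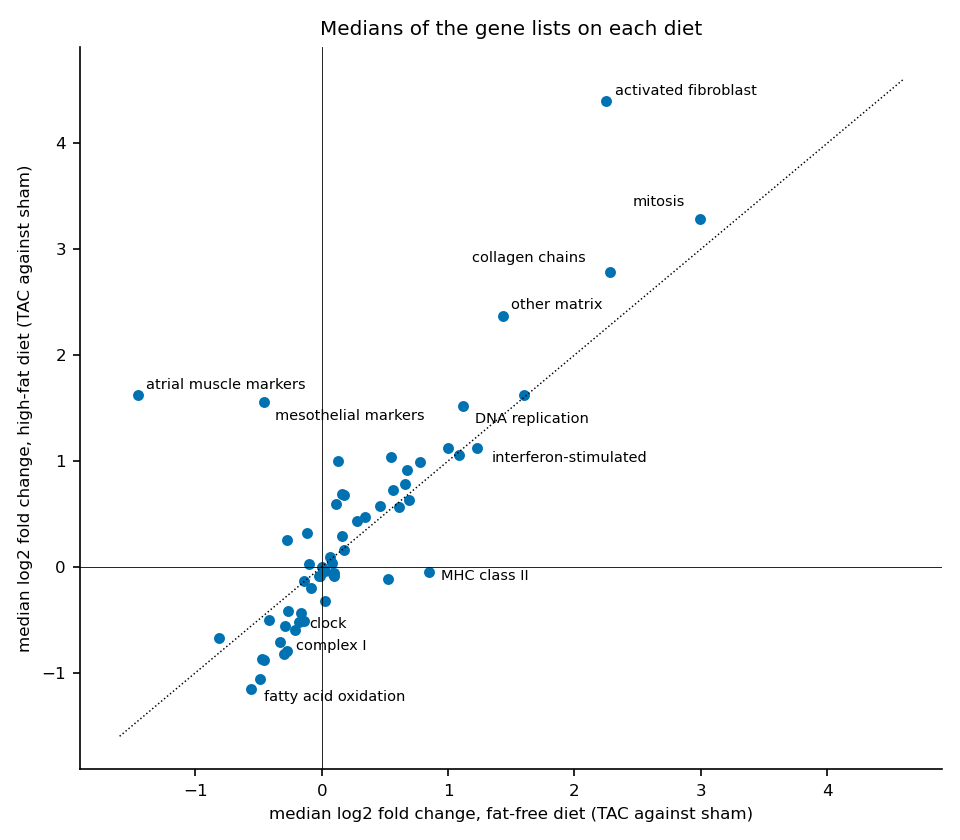
Median log2 fold changes of gene lists with at least 5 genes tested, TAC against sham, fat-free diet on the x axis and high-fat diet on the y axis. The dotted line marks equal medians. Many lists lie near the line; the activated fibroblast list lies above it, at 4.40 on the high-fat and 2.25 on the fat-free diet, MHC class II lies below it, with medians of 0.85 without fat and -0.05 on the high-fat diet, and the atrial and mesothelial markers, which are high in TAC replicate 1 of the high-fat diet, lie far above it.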

How the data were processed

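RNA from mouse hearts was made into stranded, poly(A)-selected libraries and sequenced on an Illumina NextSeq, per the labels' protocols. The authors used STAR, Subread featureCounts and DESeq2 with build mm10, per the submitters' processing notes, which give no versions, and the study called genes at a 10% false discovery rate. The deposited table of the high-fat diet holds, per gene, the authors' DESeq2 normalized values, counts divided by size factors and rounded, handled here as a score, since rounding followed normalization. It also holds the authors' deposited log2 fold changes and adjusted p-values, used only as an alternative. All 11 columns of samples were matched to the labels and 0 were left unmatched; sham replicate 1 of the high-fat diet was not analysed here. Of the 27179 genes in the table, 847 have no symbol, and 27 symbols that had been turned into dates were restored from their gene IDs.

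Genes with at least 10 normalized counts in at least 2 libraries were kept, 1 was added, log2 was taken, and limma 3.58.1 (R 4.3.3, trend, Benjamini-Hochberg adjustment over all 14274 genes) was fitted to 2 sham and 3 TAC libraries. limma was used since the values are not raw counts. The difference between diets was fitted as an interaction over all 11 libraries. The smallest two-sided p of an exact rank-sum test for 2 against 3 libraries is 0.2, so no gene could pass that test alone. The script was tested on simulated data. Summaries and figures used Python 3.11.15, pandas 2.3.3, numpy 2.4.6 and matplotlib 3.10.9. The depth in raw reads is not known from these values, and no counting interval is given. Members and gene lists were chosen with earlier results of these data known. The genes named were to be the 12 largest rises and falls among called genes without overlap and with at least 100 normalized counts in the higher group, up to 3 genes of smallest adjusted p in each list, and fixed genes. Other genes, chosen after their values were seen, are named for their place in a pathway. Coordinates and promoters are from RefSeq, build GRCm38.p6, of which mm10 is the browser name. The alternatives were other pseudocounts, filters, scalings, limma settings, a Myl7 covariate, a replicate block, all libraries in 1 fit, the authors' p-values, a 0.05 threshold and leaving out each library. Some called genes are not reported here.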

Additional observations from a re-analysis of the deposited data

How the results depend on the processing

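The count of 4519 called genes fell to 2814 with no filter and to 1289 at an adjusted p under 0.05, and rose to 6849 with values rescaled to equal totals; leaving out 1 library gave 0 to 5966 calls. The remaining settings gave 3068 (limma without the trend) to 6102 (replicate block), and the authors' deposited table gives 5906. The only shared replicate numbers are 2 and 3, and deviations from the group means correlated at 0.15 for number 2 and -0.12 for number 3. The deviations of 2 sham libraries mirror each other, so these values cannot show whether the numbers pair the samples. In the block fit, where TAC replicate 1 has no sham library of its number, 6102 genes were called. With a block within each diet, 0 genes differed between the diets. The difference between diets gave 0 or 1 genes when a library was left out, the 1 being Cenpf without TAC replicate 1 of the high-fat diet. Of the called genes named in the text, Cdkn1b changed sign, to 0.01 with equal totals (not called there), and no other did under these settings.

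Uncalled genes changed sign as follows. Msln had a log2 fold change of -0.49 with the replicate block and -0.76 with Myl7 as a covariate. Cox8a had -0.04 and Lyve1 -0.09 in the authors' deposited table. With equal totals Per1 had 0.23, Cd74 0.19, H2-Ab1 0.31 and Timd4 0.012, and with equal totals without the mitochondrial genome Per1 had 0.035 and H2-Ab1 0.11. Leaving out 1 library gave a range of -0.49 to 2.50 for Msln, -0.43 to 0.044 for Per1, -0.18 to 0.74 for Rsad2, -0.21 to 0.010 for H2-Ab1, -0.16 to 0.78 for Lyve1 and -0.093 to 0.30 for Cdh5. The cause was not tested. With 2 sham libraries, each of them carries much of the estimate of spread, and depth in raw reads is unknown.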
